A study of Mus musculus with 16 samples.

Results

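The 5′ untranslated region (5′ UTR) is the stretch of an mRNA between its cap and the start codon of the main protein. Ribosome footprints in it were read here in mouse neural stem cells, as rows of the deposited footprint table whose P-site, the ribosomal site that holds the tRNA carrying the growing peptide, was assigned to the 5′ UTR. The table held 122689 such footprints on 14530 transcripts, of 2859681 footprints on 74042 transcripts in all. No file used here pairs these transcripts with genes, so transcripts that shared runs of the same footprints were joined into families, and the transcript with most coding-sequence footprints stood for each family. Among transcripts with at least 20 footprints in the 5′ UTR and coding sequence together this left 6410 transcripts, with 34044 footprints in the 5′ UTR and 624614 in the coding sequence, and all values below are for these unless stated.

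The cells were grown in the condition labelled GF, described as self-renewing, with (gRNA) or without (control) a treatment named TAPIR, which is not explained in the labels. Footprints came from 2 gRNA and 2 control samples, with 1 of each in batch 1 and in batch 2, and were obtained by ribosome pulldown. The names of the 4 footprint libraries in the table match none of the sample labels. They are therefore called libraries 1 to 4 by the number in their own names, no library was assigned to gRNA or control, and the treatment was not compared. In the 12 RNA-seq libraries of the same cells, 6 per group, all 12 neural stem cell markers reached a median of 1 CPM (counts scaled to the library total), as did 6 of 7 neuron, 6 of 6 astrocyte, 2 of 6 oligodendrocyte, 1 of 5 microglia, 1 of 5 endothelial and mural, 2 of 5 fibroblast and 1 of 4 pluripotency markers. The summed level ran from 2525 to 3729 CPM for the neural stem cell list, from 614 to 857 for the neuron list, from 477 to 1099.5 for the astrocyte list, from 79.5 to 259 for the oligodendrocyte list and from 11.8 to 123 for the fibroblast list. It ran from 1.23 to 6.42 for the microglia list, from 2.73 to 7.12 for the endothelial and mural list and from 5.99 to 13.1 for the pluripotency list. Single genes carried much of some sums. Map2 of the neuron list ran from 598 to 822 CPM, while the other neuron markers had medians of 0 to 9.11. Slc1a3 of the astrocyte list ran from 377 to 721 CPM. Cnp of the oligodendrocyte list ran from 75.3 to 227 CPM and Pdgfra of the fibroblast list from 9.63 to 105. The sums of batches 1 and 2 did not overlap for the astrocyte, oligodendrocyte and fibroblast lists. The same check could not be made in the footprint libraries, whose transcripts carry no gene names.

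As background, a small ribosomal subunit loads at the cap and scans along the 5′ UTR until it meets a start codon in a favourable context. Many mammalian 5′ UTRs hold short upstream open reading frames, and translation of these can lower, or under stress retune, translation of the main coding sequence, as is known for the stress regulator Atf4. Ribosome profiling sequences the mRNA fragments that ribosomes protect. Because ribosomes move codon by codon, footprints of an elongating ribosome tend to fall in 1 of the 3 reading frames, and frame 0 here means in frame with the main start codon.

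Footprints in the 5′ UTR were a small part of all footprints, and their part differed between libraries. Of the footprints in the 5′ UTR and coding sequence together, the 5′ UTR held 5.07% in library 1 (95% Wilson interval 5.01 to 5.13, 25706 footprints in the 5′ UTR), 3.66% in library 2 (3.51 to 3.83, 2009 footprints), 6.77% in library 3 (6.59 to 6.95, 5046 footprints) and 5.86% in library 4 (5.56 to 6.18, 1283 footprints). Library 3 was highest and library 2 lowest, and the 4 intervals, which cover counting error only, did not overlap. The order was the same over all transcripts of the table, at 6.42%, 4.74%, 7.98% and 7.26%. Depth on these transcripts, 3′ UTRs included, ran from 22122 footprints in library 4 to 510729 in library 1, and the share did not follow depth in order. No 2 rows of the table were identical, so each transcript position and footprint length was recorded at most once per library. One position can thus hold at most 28 footprints, 7 lengths in 4 libraries, and densely covered stretches can be undercounted.

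Per length of sequence, the 5′ UTRs carried fewer footprints than the coding sequences. Over all 6410 transcripts, the density was 25.6 footprints per 1000 nt in the reachable 5′ UTR and 46.7 in the coding sequence. The ratio of the 2 densities was 0.538, 0.383, 0.731 and 0.627 in libraries 1 to 4, so the 5′ UTR was the sparser region in each of them. Leaving out the last 15 nt before the start codon gave a pooled ratio of 0.507.

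Footprints of the 5′ UTR were densest in the last 15 nt before the start codon. The 15 nt before it held 4752 of the 34044 5′ UTR footprints, at 51.9 per 1000 nt. Without position −1 the density was 40.5 per 1000 nt, below the 46.7 of the coding sequence. In libraries 1 to 4 it was then 29.4, 3.17, 6.05 and 1.84, against 36.0, 3.95, 5.198 and 1.54 in the coding sequence, lower in libraries 1 and 2 and higher in libraries 3 and 4. Density fell to 28.9 per 1000 nt at 16 to 30 nt upstream, to 24.4 at 101 to 200 nt and to 18.5 at 201 to 400 nt, and was 19.7 beyond that. Different transcripts make up each distance, since only long 5′ UTRs reach the far ones. The median P-site lay 99, 96, 98.5 and 105 nt upstream of the start codon in libraries 1 to 4. Counted from the 5′ end of the transcript instead, density was 14.8 per 1000 nt at 14 to 30 nt, 35.1 at 101 to 200 nt and 14.8 beyond 400 nt.

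**Figure D1:**
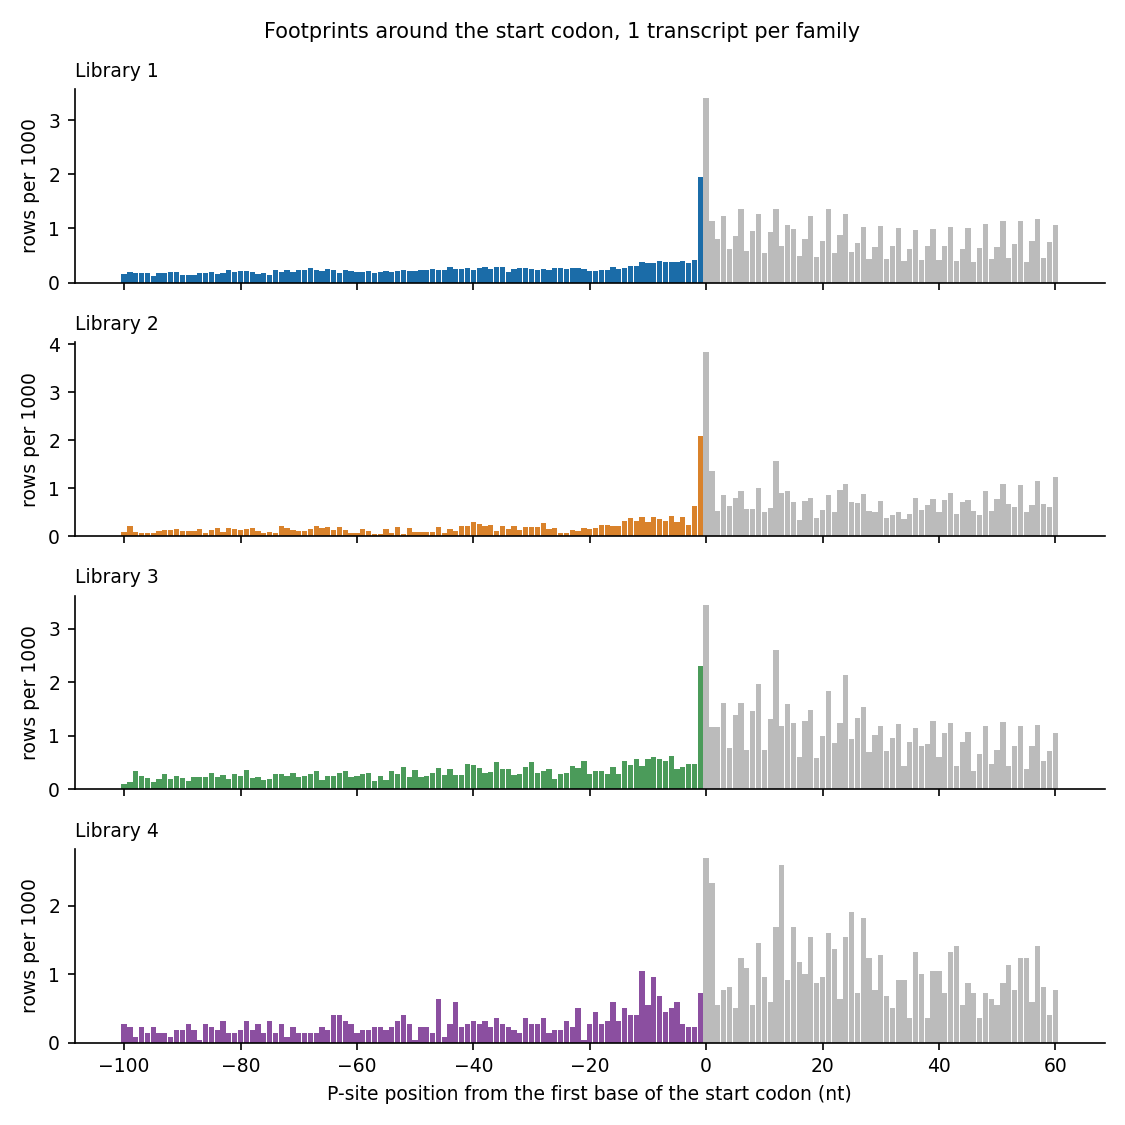
P-sites around the main start codon in each library, as position from the start codon (nt) against footprints. Position −1 stands above its upstream neighbours in libraries 1 to 3, by 4.71 to 6.12 times.

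The excess before the start codon was partly a single nucleotide. Position −1 held 989, 115, 172 and 16 footprints in libraries 1 to 4, which was 5.56, 6.12, 4.71 and 1.41 times the mean of the 15 positions before it. Libraries 1 to 3 were high there and library 4 was not. The deposited P-site positions rest on an offset from the footprint's 5′ end of 13 or 14 nt, set by library and length, and the reading at −1 differed between these offsets. Of the footprints at −1 and 0 together, −1 took 39.5%, 41.2% and 44.4% in libraries 1 to 3 among lengths with an offset of 13 nt, but 15.8%, 13.04% and 19.2% among lengths with an offset of 14 nt. Position +1 differed in the other direction. In library 1, footprints of 32 nt (offset 13 nt) numbered 335, 467 and 77 at −1, 0 and +1. Those of 28 nt (offset 14 nt) numbered 33, 155 and 154. In library 4 every length except 26 nt has an offset of 14 nt. There −1 held 16 footprints and 0 held 59, so that −1 took 21.3%, with 18.3% among lengths with an offset of 14 nt and 3 of 4 footprints of 26 nt. A footprint at −1 is 1 nt away from being counted as coding sequence, so this position is a boundary count.

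The 5′ UTR footprints did not share the reading frame of the main coding sequence. In libraries 1 to 4, 31.6%, 31.8%, 32.5% and 32.2% of them fell in frame 0, against 55.1%, 45.9%, 49.8% and 42.0% in the coding sequence of the same transcripts. The difference was −23.5 percentage points in library 1 (95% Newcombe interval −24.1 to −22.9), −14.2 in library 2 (−16.2 to −12.1), −17.3 in library 3 (−18.6 to −15.9) and −9.78 in library 4 (−12.4 to −7.09). Frame 2 was the fullest frame of the 5′ UTR in all 4 libraries, at 35.1% to 36.2%. That frame contains position −1. Pooled over libraries, frames 0, 1 and 2 held 10819, 11056 and 12169 footprints, and 1292 of those in frame 2 lay at −1. Without position −1, frame 2 was not the fullest in the pool or in libraries 1 to 3, and stayed the fullest only in library 4. Without the last 15 nt before the start codon the pooled frame 0 share was 32.9% in place of 31.8%. In library 4 the coding sequence itself was split over 2 frames, with 42.0% in frame 0, 39.4% in frame 1 and 18.6% in frame 2. Frame 0 alone therefore sets its coding sequence apart less clearly than in the other libraries.

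**Figure D2:**
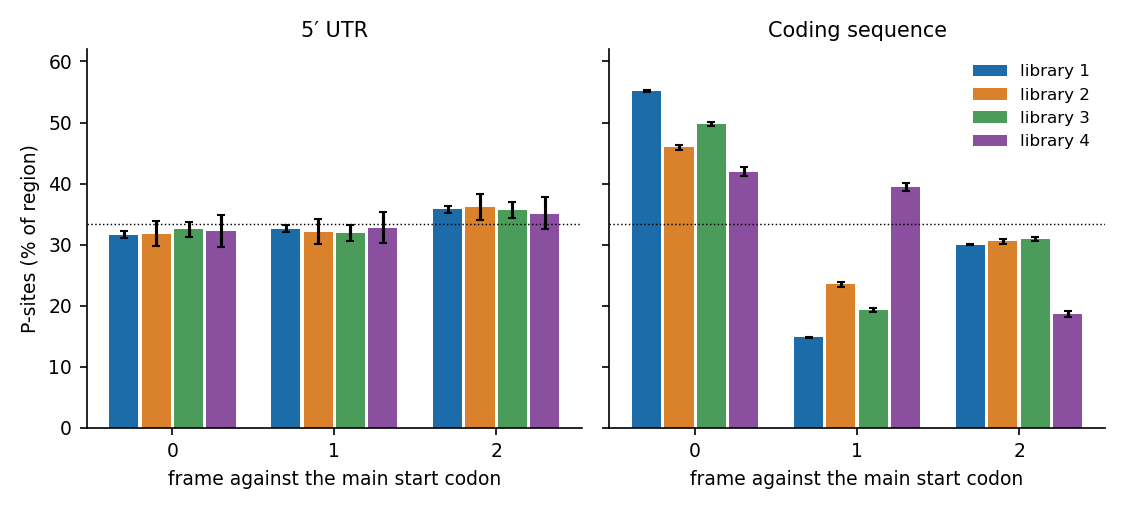
Percentage of P-sites in each reading frame, by library, in the 5′ UTR (left) and the coding sequence (right). Bars are 95% Wilson intervals and the dotted line marks equal use of the 3 frames; the 5′ UTR bars lie near it, whereas frame 0 of the coding sequence reaches 55.1% in library 1.

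Upstream open reading frames can lie in any frame, so the frame was also read transcript by transcript. The fullest frame of each 5′ UTR was found in library 1 alone, in the 311 transcripts with at least 20 upstream footprints there, and then read in libraries 2 to 4. The leading frame was frame 0 in 99 of them, frame 1 in 109 and frame 2 in 103, a nearly even split. In libraries 2 to 4 it held 39.8% of the 5′ UTR footprints (95% Wilson interval 38.4 to 41.2, 4700 footprints), at 38.6%, 40.9% and 37.7% in the separate libraries. Equal use would give 33.3%. The same procedure on coding sequences, in the 334 transcripts with at least 20 upstream footprints in all and 20 coding footprints in library 1, gave frame 0 in 326 and a share of 47.8% (47.0 to 48.6). Pooled over transcripts, the leading frame of 5′ UTRs therefore carried over between libraries, but less strongly than that of coding sequences. Of the 198 transcripts read singly below, the Wilson interval of this share lay above 33.3% in 31, and the share was below 33.3% in 58. Footprints of several lengths at 1 position were counted separately, and a peak position shared by libraries also fills 1 frame. The Wilson intervals here and for single transcripts below are therefore too narrow, and equal use is only a rough reference. Whether the carried-over frame marks translation or shared peak positions was not tested.

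Footprint length hardly separated the regions. The mean length in 5′ UTR and coding sequence was 29.9 and 29.9 nt in library 1, 29.6 and 29.5 in library 2, 29.7 and 29.6 in library 3, and 29.2 and 29.3 in library 4.

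Whether a transcript had upstream footprints at all went with how long its 5′ UTR was. A 5′ UTR footprint was present in 3192 of the 6410 transcripts (49.8%). The figure rose from 16.7% of transcripts with a 5′ UTR of 14 to 50 nt to 30.9% at 51 to 100 nt, 48.8% at 101 to 200 nt, 65.3% at 201 to 400 nt and 78.6% above 400 nt. Density did not rise with it: it was 29.7, 25.1, 34.6, 28 and 19.0 per 1000 nt in the same classes, lowest for the longest 5′ UTRs. The coding sequences of those transcripts were also sparsest in the longest class, at 34.4 per 1000 nt against 54.2 in the class of 101 to 200 nt. In 210 further transcripts the 5′ UTR was under 14 nt, too short for a P-site to be placed there.

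**Figure D3:**
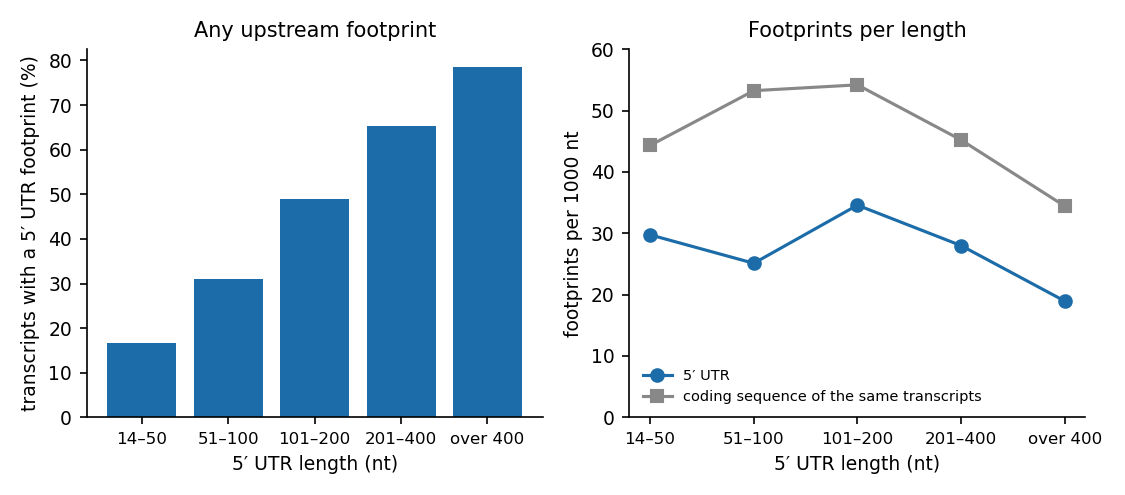
Transcripts grouped by 5′ UTR length (nt). The left panel gives the percentage with any 5′ UTR footprint, which rises from 16.7% to 78.6%, and the right panel gives footprints per 1000 nt in the 5′ UTR and in the coding sequence of the same transcripts, both lowest in the longest class.

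The share of a transcript's footprints that lay upstream was skewed. Its median was 0, its upper quartile 6.15%, its 90th percentile 22.6% and its 95th percentile 40.8%. At the threshold of 20 footprints, transcripts just inside and just outside had similar upstream use before families were formed: 39.1% of the 458 transcripts with 20 footprints and 40.1% of the 471 with 19 had any in the 5′ UTR. In 228 transcripts (3.56%) more footprints lay in the 5′ UTR than in the coding sequence, and in 2 of them all did. These included 1 of 604 transcripts with 5′ UTRs of 14 to 50 nt and 84 of 836 with 5′ UTRs above 400 nt. Upstream footprints lay in 3192 of the 6410 transcripts. The leading 10 transcripts held 6.14% of these footprints and the leading 100 held 28.1%.

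Most transcripts that were mostly upstream in library 1 and had enough footprints to be read in another library were mostly upstream there too. Of those with more 5′ UTR than coding footprints in library 1 (at least 20 footprints there and 10 in the other library), the same held in 17 of 19 in library 2. Over all transcripts with at least 10 footprints in library 2, 1.72% were mostly upstream. It held in 52 of 54 in library 3, where 4.91% of all transcripts were mostly upstream, and in 5 of 6 in library 4, where 2.21% were. In the other direction, of the transcripts mostly upstream in libraries 2, 3 and 4, with at least 20 footprints there and 10 in library 1, 6 of 10, 17 of 27 and 1 of 4 were mostly upstream in library 1. Over all transcripts with at least 10 footprints in library 1, 3.402% were. Across transcripts, the shares of any 2 libraries had a Pearson correlation of 0.903 to 0.971 and a Spearman correlation of 0.596 to 0.754 over 177 to 914 transcripts. These are across transcripts, which are not replicates, and all libraries share the same transcript models.

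In 439 transcripts at least 20 footprints lay in the 5′ UTR, which allowed the place within the 5′ UTR to be read. Their 5′ UTRs were long, with a median of 290 nt against 166 nt over all 6410, and their median upstream share was 37.5%. In 254 of them all 4 libraries contributed. Within these 5′ UTRs footprints were gathered in short stretches: the densest window of 30 nt held a median of 84.2% of the footprints and more than 50% in 387 of the 439. Windows lay at all distances, with 87 centred within 30 nt of the start codon, 99 at 101 to 200 nt and 57 beyond 400 nt. In 131 transcripts a second, separate window held at least 20% of the footprints.

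The stretches were at the same place in different libraries. In the 198 transcripts with at least 10 upstream footprints in library 1 and 10 in the others together, the window was chosen in library 1 and read in libraries 2 to 4. It held a median of 83.3% of the footprints of library 1 and a median of 90% of those of libraries 2 to 4, and more than 50% of the latter in 166 transcripts (83.8%). The window covered a median of 11.2% of the reachable 5′ UTR. Such gathering was not limited to 5′ UTRs. A coding stretch of 269 nt was read in the same way in 739 transcripts. The window chosen in library 1 held a median of 67.4% of the footprints of library 1 and 82.6% of those of the others. It held more than 50% of the latter in 617 (83.5%). In the 22 transcripts with both values, the 5′ UTR window held the larger share in 11.

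**Figure D4:**
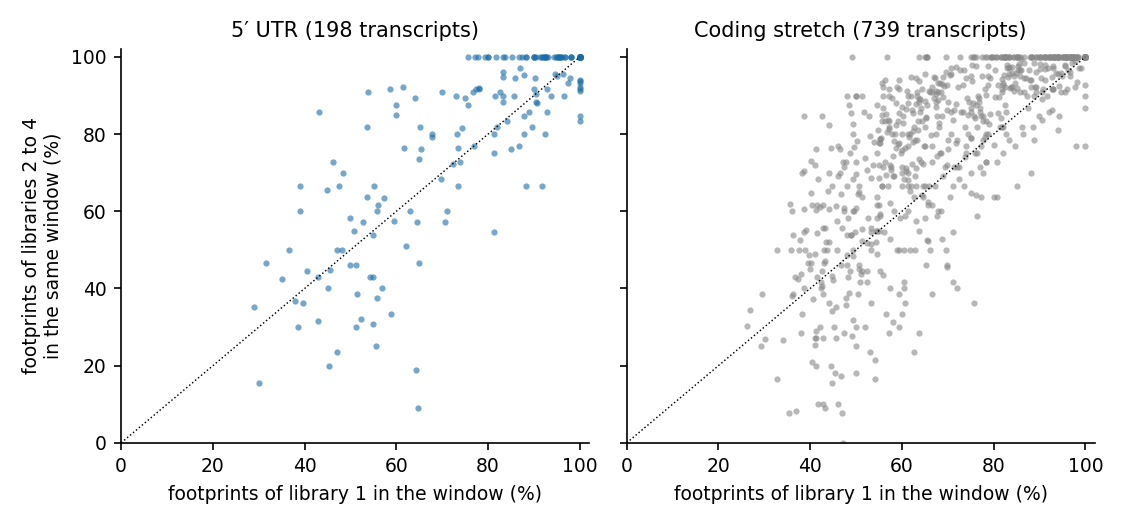
Each point is a transcript, with the percentage of library 1 footprints in the 30 nt window chosen in library 1 against the percentage of footprints of libraries 2 to 4 in that window, for 198 5′ UTRs and 739 coding stretches. Most points lie above 50% on the vertical axis in both panels, and the dotted line marks equal percentages.

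The 12 transcripts with most upstream footprints and the 8 with the highest upstream share were looked at one by one, 18 in all since 2 are in both. The 12 had 147 to 300 footprints in 5′ UTRs of 149 to 1378 nt, and the share upstream ran from 28.8% to 97.9%. It was above 50% in each of the 4 libraries in 8 of the 12. The 8 had 50 to 228 upstream footprints against 0 to 8 in the coding sequence. The files do not pair these identifiers with gene names, so only the leading 2 of each kind are named, and sequences of these 5′ UTRs were not used here.

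ENSMUST00000052332, with a 5′ UTR of 184 nt before 447 codons, had most upstream footprints. They numbered 132, 52, 75 and 41 in libraries 1 to 4, beside 153, 14, 13 and 2 in its coding sequence. All 4 libraries had many, and the share upstream was 46.3% in library 1 but 78.8%, 85.2% and 95.3% in libraries 2 to 4. Of its 300 upstream footprints, 285 (95%) lay in the last 30 nt before the start codon. The fullest position was −8, with 27 of the 28 footprints that a position can hold, so the level there is capped. Library 1 held 7 footprints, the most 1 library can hold at a position, at −18, −17, −14, −11 and −8. Library 3 reached this at −9 and −8 and library 4 at −8. How far such capping lowers the upstream count and share of library 1 was not tested. Frames 0, 1 and 2 held 95, 125 and 80 footprints. This transcript stands for a family of 10, and 158 of its 300 upstream footprints lay in runs of 12 that also occur in another family, so their source is uncertain. With runs of 8 the figure was 231.

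ENSMUST00000101534, with a 5′ UTR of 329 nt before 169 codons, was the second. Its upstream footprints numbered 165, 28, 71 and 26 in libraries 1 to 4 and its coding footprints 426, 98, 144 and 48. The share upstream was 27.9%, 22.2%, 33.02% and 35.1%, below 50% in each library, so this 5′ UTR was dense beside a well-covered coding sequence. The window from −176 to −147 held 211 of the 290 upstream footprints (72.8%), and a second one starting at −137 held 18.6%. No footprint lay in the last 100 nt before the start codon. Runs of 12 shared with another family took 61 of the 290 footprints. Of the 290, 22 lay in runs of 8 that another transcript of its own family holds in its coding sequence.

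ENSMUST00000200921 had 50 upstream footprints and none among its 100 codons, the highest share. The upstream footprints numbered 30, 5, 12 and 3 in libraries 1 to 4, and 47 of the 50 (94%) lay between −161 and −132 of a 5′ UTR of 509 nt. A share of 100% from 50 footprints has a 95% Wilson interval of 92.9 to 100. All 4 libraries placed footprints in the same 30 nt.

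ENSMUST00000187510 had 66 upstream footprints and 1 in a coding sequence of 590 codons. They numbered 34, 5, 24 and 3 in libraries 1 to 4, and 62 of the 66 (93.9%) lay between −722 and −693, far from the start codon in a 5′ UTR of 823 nt. The peak was at −714, with 10 footprints. Both transcripts were chosen for the highest share among those with at least 50 upstream footprints, so a nearly empty coding sequence follows from the choice. The 5′ UTRs of the 8 transcripts chosen in this way were 250 to 1591 nt long.

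**Figure D5:**
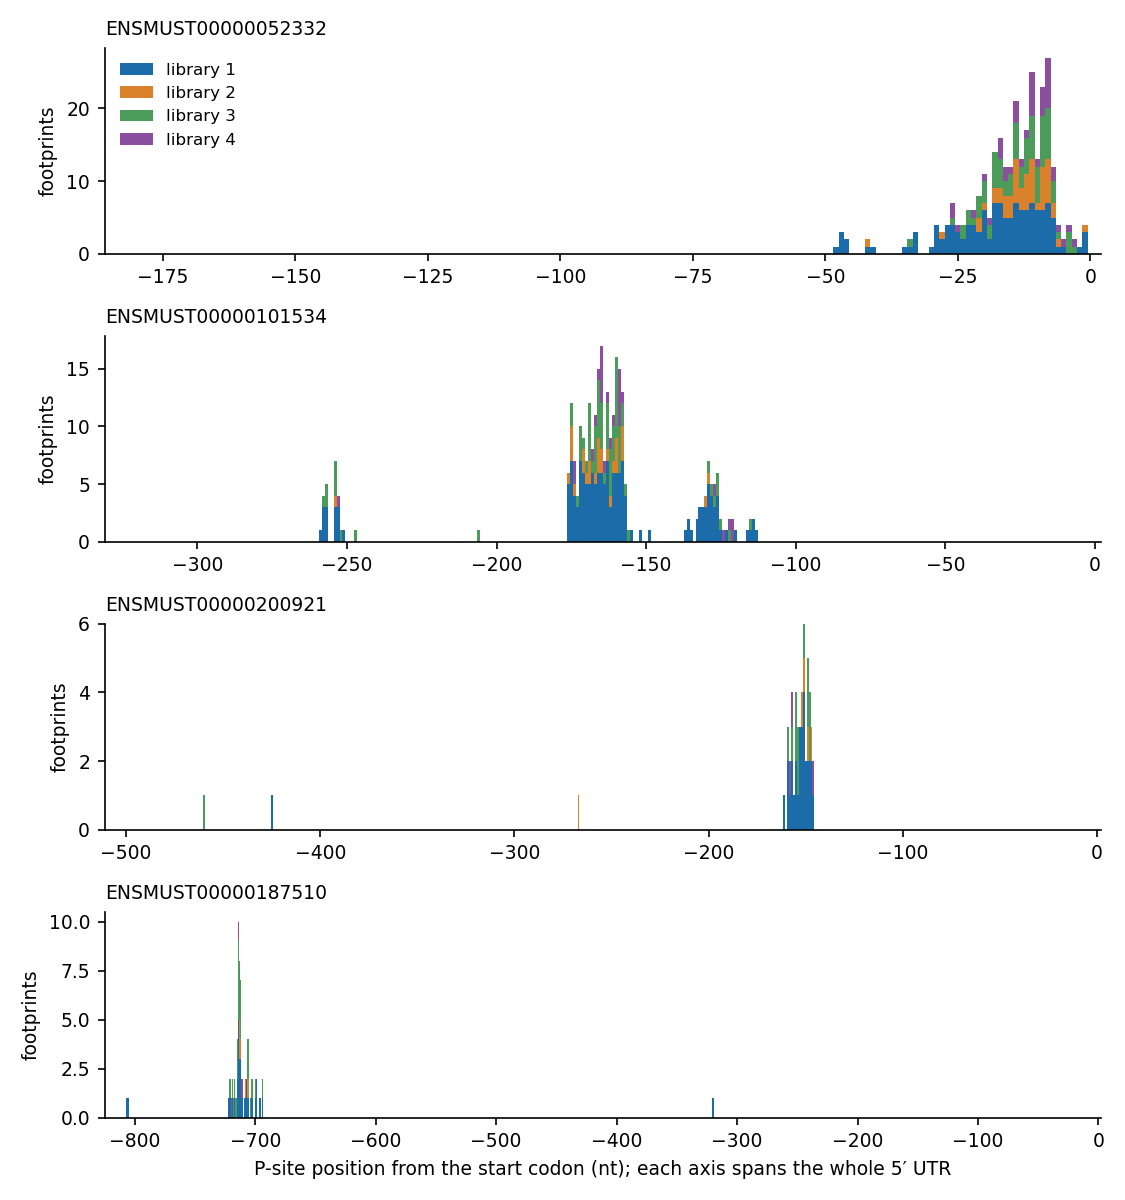
Footprints at each P-site position of the 5′ UTR, stacked by library, in the 4 named transcripts. Each horizontal axis spans the whole 5′ UTR in nt from the start codon; the footprints of each transcript sit mainly in 1 stretch, which lies next to the start codon only in the top panel.

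Among the other 14 transcripts the layouts varied. The third by number of upstream footprints had 228 of them against 5 in its coding sequence, in 2 windows starting at −421 (37.7%) and −492 (35.5%). The fourth had 212 upstream footprints, 90.1% of them in the window starting at −122, and position −117 held all 28 possible footprints. The fifth kept 88.8% of 205 footprints in the window starting at −59, and its leading frame of library 1, frame 2 with 49.5%, held 45.9% in libraries 2 to 4 (95% Wilson interval 36.4 to 55.8). The tenth, with a 5′ UTR of 1285 nt, held 54.0% in a window starting at −1071 and 43.5% in one starting at −886. In 4 of the 18 transcripts the Wilson interval of the leading frame in libraries 2 to 4 lay above 33.3%, and in 6 the share itself was below 33.3%. Over the 198 transcripts with at least 10 upstream footprints in library 1 and 10 in the others, the interval lay above 33.3% in 31 (15.7%) and the share was below 33.3% in 58. The leading frame of library 1 in ENSMUST00000101534, frame 1 with 34.5%, held 27.2% in libraries 2 to 4 (20.2 to 35.6).

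The assignment of a footprint to a 5′ UTR rests on the transcript model. Of the 34044 footprints, 123 (0.361%) lay in runs of 8 that another transcript of the family holds in its coding sequence. These made up at least 50% of the upstream footprints in 2 of the 439 transcripts. The figure of 0.361% is low partly by design, since the transcript with most coding footprints was kept for each family. The 2099 families of a single transcript could not be compared, so it does not show how rare wrong assignment is. Runs of 12 footprints shared with another family touched 30 of the 439 and took at least 50% of the upstream footprints in 2 of them. With runs of 8, tried first, these counts were 187 and 37, so how many upstream footprints have an uncertain source depends on the run length.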

How the data were processed

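For the footprint libraries the submitters' processing notes list the build GRCm39 and the tools STAR 2.7.10b, cutadapt 5.2 and UMI-tools 1.1.6. Which tool set the P-site offsets is not stated there. The deposited table gives other values, 1 footprint per row: transcript, P-site position, length of 26 to 32 nt, region and library. The notes for the RNA-seq libraries list HTSeq, SAMtools, STAR and Trimmomatic, and the deposited files hold raw counts per gene, totalling 8414028 to 19454390 over 57132 genes; they served here only for the marker check in CPM.

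Transcripts with at least 20 footprints in the 5′ UTR and coding sequence (17921) were joined into families when they shared at least 3 runs of 8 consecutive footprints (spacing, length and library) and 30% of the runs of the smaller one. This gave 6410 families, 2099 of them single, the largest with 37. It stands in for 1 transcript per gene, because no file pairs transcripts with genes. For comparison between families runs of 8 were tried first and replaced by runs of 12 after their result was seen, because short runs can match by chance in densely filled stretches; both results are given. The linking rule, the 30 nt window, its minimum of 10 footprints on each side and the coding stretch were chosen after seeing the data. Intervals are 95% Wilson, or Newcombe for differences, and cover counting error only; no test between libraries was made. The named transcripts are the 12 with most upstream footprints and the 8 with the highest share among those with at least 50. The lists and members were chosen with earlier results of these data known. The scripts were tested on simulated data. Python 3.11.15, pandas 2.3.3, numpy 2.4.6, scipy 1.17.1 and networkx 3.6.1 were used. The planned gRNA against control tests and the gene lists were not run, since library names match no label and transcripts no gene.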

Additional observations from a re-analysis of the deposited data

How the results depend on the processing

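The pooled 5′ UTR share of 5.17% was 6.48% over all transcripts, 5.11% for lengths 28 to 30 nt, 4.48% without the last 15 nt, 4.63% and 5.45% with at least 50 and 10 footprints, 5.24% with a fixed offset of 13 nt, 5.60% with ties broken by most upstream footprints, 5.25% with linking at 20% and 5.34% with libraries weighted equally. Leaving out each library gave 4.96% to 5.51%. The frame 0 share of 31.8% was 33.9% over all transcripts, where isoforms repeat footprints, 32.9% without the last 15 nt and 31.7% to 32.3% on leaving out each library. The 228 mostly upstream transcripts of 6410 became 858 over all 17921 transcripts with at least 20 footprints. They were 89 with at least 50 footprints and 407 with at least 10, which are sets of other sizes. On leaving out each library there were 218 to 338 among the same transcripts, without applying the minimum of 20 footprints again. The leading frame share of 39.8% was 38.0% for lengths 28 to 30 nt, 41.2% with a fixed offset and 38.3% to 40.2% on leaving out each of libraries 2 to 4; without library 1, which sets it, there is no value. The window median of 90% was 88.9% to 100% on leaving out each of libraries 2 to 4, with 100% without library 3. Linking rules, the fixed offset, ties and equal weights were added after seeing the data. No paired analysis was possible because the footprint library names match no sample label. The alternatives planned for the RNA-seq and treatment tests (DESeq2, no filter, no batch term, single batches, libraries left out, replicate block) were not run.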

Other observations

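The upstream share of a transcript differed between libraries in both directions. Among the transcripts with at least 20 upstream footprints that had at least 20 footprints in the 5′ UTR and coding sequence in both libraries compared, the share was higher than in library 1 in 32 of 88 in library 2, 100 of 143 in library 3 and 12 of 30 in library 4. Library 1 gave 25706 of the 34044 upstream footprints, so this set leans towards transcripts with a high share in library 1. These counts are therefore not an even comparison. The share of footprints of 30 to 32 nt inside the densest windows was 59.4%, 54.9%, 54.8% and 45.6% in libraries 1 to 4, against 65.1%, 58.4%, 56.9% and 43.8% in the rest of the same 5′ UTRs. The 95% Wilson intervals were apart only in library 1 (58.4 to 60.3 inside, 63.5 to 66.6 outside) and overlapped in libraries 2 to 4. Since each length is recorded once per position, a full position holds all lengths equally, and no allowance was made for this. In library 1, 39 of the 439 transcripts had all 7 footprint lengths at a single 5′ UTR position, where no further footprint could be recorded.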
